A study of Mus musculus with 13 samples.

Results

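The RNA levels of 10 genes of the p53 response and of growth arrest (Trp53, Mdm2, Cdkn1a, Cdkn2a, Ccng1, Gadd45a, Gadd45b, Bax, Trp53inp1 and Sesn1) were followed through 13 mouse livers. The genes were found by their current symbol or an older synonym in the probe names of the array, which gave 17 probes out of 41174, and all 10 genes were among the 20392 genes tested. All livers were from C57BL/6 males, and every group had eaten the same western-style, fat-rich diet over 5 months. Of these mice, 5 were wild type for Sirt1 (WT), 5 carried the SIRT1 TA KI allele, with alanine in place of a threonine of SIRT1 (TAKI), and 3 carried the SIRT1 TE KI allele, with glutamate there (TEKI). That threonine can be phosphorylated, alanine cannot be, and glutamate carries a negative charge, so the comparisons ask what the state of this residue does to hepatic RNA. Neither the ages of the mice nor the number of copies of the knock-in alleles is stated in the sources used here. One liver went on each Agilent 1-colour array, and precision is limited by the small number of arrays, with TEKI having the fewest. Nothing states whether the mice shared litters or cages. The p-values measure only the spread between these arrays, in which animal, RNA preparation, labelling and hybridisation cannot be told apart. Levels are log2 intensities from which the 75th percentile of that array was taken away, and a difference of 1 is a doubling.

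The transcription factor p53, encoded by Trp53, is held low in resting cells by Mdm2, a ubiquitin ligase whose own gene p53 switches on. After DNA damage and other stress p53 accumulates, induces inhibitors of the cell cycle and promoters of apoptosis, and in liver it also acts on lipid and glucose metabolism. SIRT1 is an NAD-dependent deacetylase, and p53 is among the proteins it deacetylates. These steps act on the p53 protein, which an RNA array does not measure, so the readout is the RNA of Trp53 and of the genes downstream.

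Of the 5 slides used, slide 1 held WT replicates 1, 2 and 4, with WT replicate 3 on slide 2, WT replicate 5 and all 3 TEKI livers on slide 3, TAKI replicates 1 and 2 on slide 4, and TAKI replicates 3, 4 and 5 on slide 5. For comparisons with TAKI, slide and genotype cannot be told apart. On TEKI replicate 1, 86.8% of spots were well above background, against 60.5% to 73.1% on the others, and that array held the highest value of 27.3% of all genes. All 5 hepatocyte markers (Alb, Apoa1, Ttr, Cps1 and Cyp2e1) were well above background on every array. The summed level of 9 lymphocyte markers lay between 1.13 and 1.74 in WT livers, between 1.53 and 2.13 in TAKI livers and between 1.59 and 2.22 in TEKI livers. For 6 endothelial markers the same ranges were 4.01 to 4.52, 4.38 to 4.61 and 4.52 to 4.71. In whole liver RNA, fewer cells of a type and less RNA per cell cannot be told apart.

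The probes decide what each level means, and those of Trp53 are shown because they gave different results. One Trp53 probe lay on a single spot, in row 449 of the 532 rows of the array. The other lay on 10 spots spread over rows 48 to 509. The first 30 of the 60 bases of the single-spot probe are printed, and the whole of the other, read 5′ to 3′ from the scanner files.
Trp53, single spot: gcattcaggccctcatcctcctccttccca
Trp53, 10 spots: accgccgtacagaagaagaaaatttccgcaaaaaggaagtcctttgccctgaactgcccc
The Bax probe, also on 10 spots, is shown because Bax followed Cdkn1a from animal to animal.
Bax, 10 spots: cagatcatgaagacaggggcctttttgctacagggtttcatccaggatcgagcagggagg
The dimmer Trp53inp1 probe is shown for its make-up: its bases match themselves when shifted by 26, at 33 of the 34 positions that can be compared. It is a tandem repeat of the unit below.
Trp53inp1, repeat unit of the dimmer probe: agtactaatacttaccacagcaggcg

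None of the 10 genes passed an adjusted p of 0.05 in any of the 3 comparisons (limma, Benjamini-Hochberg over all genes tested). In TAKI minus WT, 0 of 10 passed, against 2.82% of all genes, and 0 of 10 had an unadjusted p under 0.05, against 14.7%. In TEKI minus WT, 0 of 10 passed, against 0.0049% of all genes, which is 1 gene, and 1 of 10, Trp53, had an unadjusted p under 0.05, against 11.6%. In TEKI minus TAKI, 0 of 10 passed, against 3.45%, and 1 of 10, again Trp53, had an unadjusted p under 0.05, against 12.1%. The groups did not overlap for 0, 1 and 1 of the 10 genes in these comparisons, against 7.49%, 3.92% and 8.23% of all genes. Tested 1 probe at a time, none of the 17 probes passed either, against 2.25%, 0.00334% and 2.88% of 29931 probes. The median difference of the 10 genes was -0.05, -0.08 and -0.05, beside 0.00, 0.07 and 0.06 over all genes.

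**Figure D1:**
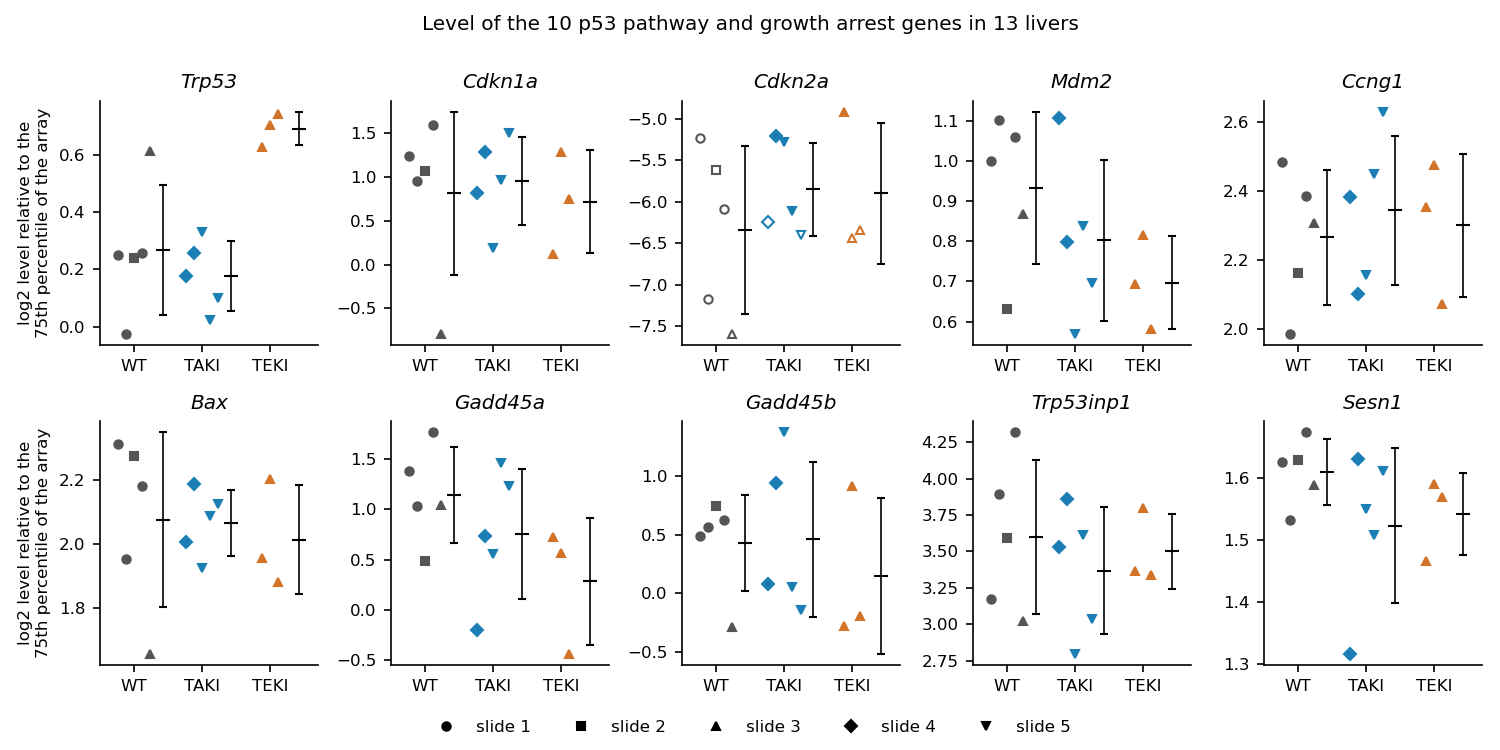
Level of the tested probe of each of the 10 genes in every liver (vertical axis, log2, scaled by the array's 75th percentile) by genotype, with the mean and SD at the right of each group. Symbols give the slide, and open symbols are arrays on which the probe was not well above background. Trp53 lies at 0.61 to 0.74 on the 4 arrays of slide 3, Cdkn1a is lowest in WT replicate 5 at -0.79, and Cdkn2a is mostly below background.

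Trp53 encodes p53 itself. On its brighter, single-spot probe the WT livers read 0.25, -0.02, 0.24, 0.26 and 0.61, the TAKI livers 0.18, 0.26, 0.33, 0.02 and 0.10, and the TEKI livers 0.63, 0.71 and 0.74. The 3 TEKI values lay above all others, WT replicate 5 lay just below them, and WT and TAKI overlapped otherwise. TEKI stood at 0.69 ± 0.06 (SD, n = 3) and WT at 0.27 ± 0.23 (SD, n = 5), a difference of 0.43 ± 0.13 (SE), or 1.34-fold, with an adjusted p of 0.391 in limma (0.0807 to 1.00 over 29 other settings). The difference from TAKI, which stood at 0.18 ± 0.12 (SD, n = 5), was 0.52 ± 0.13 (SE), or 1.43-fold, with an adjusted p of 0.0559 in limma (0.00912 to 0.681 over 27 other settings). That difference passed in 7 of the 27 settings: with quantile normalization (0.0336), normexp background correction (0.00912), an intensity trend (0.0387), array weights (0.0475), without WT replicate 2 (0.0358), without WT replicate 5 (0.0164) and without WT replicate 5 and TEKI replicate 1 (0.0250). Of all 20392 genes, 4187 passed in TEKI minus TAKI with normexp and 1122 with quantile normalization, against 704 in the main fit. The other settings in which Trp53 passed called 657 to 1230 genes. For Trp53, TAKI minus WT was -0.09 ± 0.11 (SE), with an adjusted p of 0.796 in limma.

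The high Trp53 readings were those of slide 3. Its 4 arrays, WT replicate 5 among them, read 0.61 to 0.74, while the other 9 arrays read -0.02 to 0.33. Among all genes, 2.35% had every slide 3 array above every other array, and 0.157% had every one below. With slide as a fixed block, or within slide 3 alone, TEKI minus WT was 0.08. Both values rest on 1 WT array, WT replicate 5, because no other WT liver shared a slide with TEKI. With the block, the adjusted p was 0.955 in limma. Scaling to the array median in place of the 75th percentile moved TEKI minus WT to -0.00, because it moved the median of all genes from 0.07 to -0.36. Relative to that median, the Trp53 difference was 0.35 under both scalings. This had to be so, because they differ only by a constant per array. With quantile normalization the relative difference was 0.45, and with normexp background correction 0.29.

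The other Trp53 probe did not repeat this. It read -1.47, -1.47, -1.44, -1.49 and -1.63 in WT, -1.45, -1.30, -1.33, -1.36 and -1.21 in TAKI, and -0.65, -1.64 and -1.47 in TEKI. TEKI replicate 1, the array with the most spots above background, stood apart, and the other TEKI livers lay among or below the WT values. TEKI minus WT was 0.25 ± 0.18 (SE; adjusted p = 0.642 in limma over 29931 probes) and TEKI minus TAKI 0.08 ± 0.18 (SE; adjusted p = 0.90 in limma). Across the 13 arrays the 2 probes had a Pearson r of 0.04 and a Spearman rho of -0.20. The SD between the 10 spots had a median of 0.08 over the arrays, which covers error within an array only. The single-spot probe, in row 449, lay in the part of the array that held most genes called lower in TAKI. With the row and level trend removed (the median of genes of similar row and level on each array), no member passed in TEKI minus TAKI. The groups then did not overlap for 1 of 10 members there (1984 of all 20392 genes) and for 0 in TEKI minus WT (951). The part of position was not otherwise tested.

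**Figure D2:**
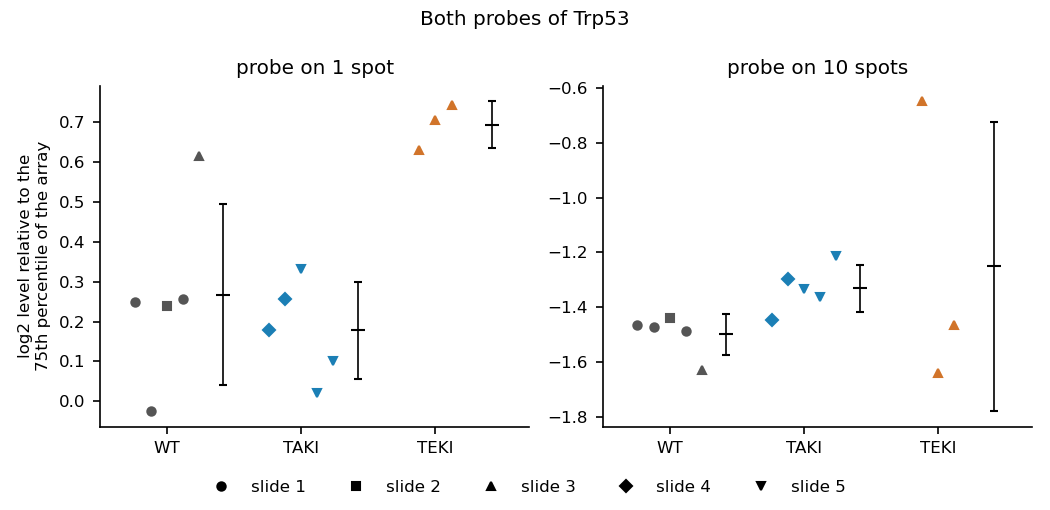
Level of both Trp53 probes in every liver (log2, scaled by the array's 75th percentile) by genotype, with the mean and SD at the right of each group and symbols for the slide. On the single-spot probe the 4 arrays of slide 3 are the highest; on the 10-spot probe TEKI replicate 1 alone stands apart, at -0.65.

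Mdm2, the ligase that marks p53 for destruction, read 1.00, 1.10, 0.63, 1.06 and 0.87 in WT, 1.11, 0.80, 0.57, 0.84 and 0.70 in TAKI, and 0.69, 0.82 and 0.58 in TEKI. The groups overlapped, with the TEKI values in or below the lower part of the WT range. TEKI minus WT was -0.24 ± 0.14 (SE; adjusted p = 0.525 in limma) and TAKI minus WT -0.13 ± 0.12 (SE; adjusted p = 0.707 in limma). The second Mdm2 probe, on 10 spots, gave -0.04 ± 0.19 and -0.03 ± 0.16 (SE), and correlated with the first at r = 0.42.

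Cdkn1a encodes p21, the inhibitor of cyclin-dependent kinases that carries out much of the arrest by p53. It read 1.23, 0.95, 1.07, 1.59 and -0.79 in WT, 0.82, 1.28, 0.19, 0.96 and 1.5 in TAKI, and 0.11, 1.28 and 0.74 in TEKI. The 3 groups overlapped over most of their range, and the lowest and the highest of the 13 livers were both WT. The difference was 0.14 ± 0.42 (SE) for TAKI minus WT, -0.10 ± 0.49 for TEKI minus WT and -0.24 ± 0.49 for TEKI minus TAKI, with adjusted p of 0.929, 0.966 and 0.895 in limma. The 95% intervals, -0.78 to 1.06, -1.16 to 0.96 and -1.30 to 0.82, include changes of 2-fold in at least 1 direction. Without WT replicate 5, TAKI minus WT was -0.26, and within slide 3, against WT replicate 5 alone, TEKI minus WT was 1.5 (adjusted p = 1.00 in limma).

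Cdkn1a differed widely between livers of one genotype. The 13 livers spanned 2.38 on the log2 scale, or 5.20-fold. The SD within genotype was 0.71, larger than for 96.5% of the 15510 genes detected above background throughout, whose median was 0.22. The probe has 10 spots, with a median SD of 0.04 between spots of an array. That value leaves out the error of RNA preparation, labelling and hybridisation, which with 1 array per liver cannot be told apart from differences between animals. In WT replicate 5 the level was 3.99-fold below the mean of the other 4 WT livers (1.21 ± 0.28, SD), and its 10 spots ran from -1.39 to -0.58, with an SD of 0.22. The part of that array in the low reading was not tested.

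Cdkn2a encodes both p16INK4a and p19ARF, the latter an inhibitor of Mdm2. Its probe was well above background on 0 of 5 WT, 3 of 5 TAKI and 1 of 3 TEKI arrays, so it passed the filter on dim probes only through the knock-in arrays. The readings ran from -7.59 to -5.23 in WT, from -6.41 to -5.21 in TAKI and from -6.44 to -4.92 in TEKI. They overlapped, and the knock-in means (-5.85 and -5.90) lay below the limit that the WT arrays set (-5.59), so no fold is given. Cdkn2a RNA was close to or below the limit of measurement in the livers of all 3 genotypes.

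Ccng1, encoding cyclin G1, a p53 target that binds a phosphatase, overlapped in all 3 groups. It ran from 1.99 to 2.49 in WT, from 2.10 to 2.63 in TAKI and from 2.07 to 2.48 in TEKI. The differences were 0.08 ± 0.13 (SE) for TAKI minus WT and 0.03 ± 0.15 for TEKI minus WT, with 95% intervals of -0.21 to 0.37 and -0.30 to 0.37. The second Ccng1 probe gave 0.02 for both comparisons and correlated with the first at r = 0.68.

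Gadd45a and Gadd45b encode small stress proteins that bind proliferating cell nuclear antigen and stress kinases, and of them Gadd45a is a p53 target. Gadd45a read 1.38, 1.03, 0.49, 1.76 and 1.04 in WT, -0.20, 0.73, 0.55, 1.46 and 1.23 in TAKI, and 0.73, 0.57 and -0.44 in TEKI. The TEKI values lay in or below the lower part of the WT range, and TAKI spanned both. Apart from Trp53, it had the smallest p of the 10 genes against WT: TEKI minus WT was -0.85 ± 0.40 (SE), or 1.81-fold lower, with an unadjusted p of 0.0524 and an adjusted p of 0.434 in limma (0.279 to 1.00 over 29 other settings). The difference kept its sign in all 29 settings and ran from -1.28 to -0.49, the latter without TEKI replicate 3. Within slide 3, against WT replicate 5 alone, it was -0.75.

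Gadd45b read 0.49, 0.57, 0.74, 0.63 and -0.29 in WT, 0.08, 0.94, 1.37, 0.05 and -0.15 in TAKI, and -0.28, 0.91 and -0.19 in TEKI. TAKI and TEKI livers fell at both ends of its range. The differences from WT were 0.03 ± 0.34 (SE) for TAKI and -0.28 ± 0.39 for TEKI. The 2 Gadd45b probes, at different places on the array but reading the same labelled RNA, correlated at r = 0.97. The SD within genotype was 0.57, larger than for 91.9% of the genes above background on every array. For Gadd45a it was 0.58, larger than for 92.1%.

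Bax encodes the pore-forming BCL2 family protein that commits a cell to apoptosis. It read 2.31, 1.95, 2.28, 2.18 and 1.66 in WT, 2.01, 2.19, 1.93, 2.09 and 2.13 in TAKI, and 1.96, 2.21 and 1.88 in TEKI. The lowest liver was again WT replicate 5, and the groups overlapped. TAKI minus WT was -0.01 ± 0.13 (SE; 95% interval -0.29 to 0.27) and TEKI minus WT -0.06 ± 0.15 (SE; 95% interval -0.39 to 0.27).

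Trp53inp1, a p53 target whose product takes part in stress responses and autophagy, read 3.17, 3.89, 3.59, 4.32 and 3.02 in WT, 3.53, 3.86, 2.80, 3.61 and 3.04 in TAKI, and 3.36, 3.8 and 3.34 in TEKI. The WT livers spanned nearly the whole range. TAKI minus WT was -0.23 ± 0.27 (SE) and TEKI minus WT -0.10 ± 0.31. Its repeat-bearing probe followed it at r = 0.80 and gave 0.11 ± 0.22 and 0.16 ± 0.26 (SE), of the opposite sign and within the error.

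Sesn1 encodes sestrin 1, a p53-induced stress protein that restrains the growth kinase mTORC1. Its brightest probe had the narrowest spread: WT livers lay between 1.53 and 1.67, TAKI livers between 1.32 and 1.63, and TEKI livers between 1.47 and 1.59. The SD within genotype was 0.09, smaller than for most genes (2.36% had a smaller one). The differences from WT were -0.09 ± 0.08 (SE) for TAKI and -0.07 ± 0.09 for TEKI. The other 2 Sesn1 probes followed each other (r = 0.87) but not this one (r = -0.02 for each). On them TAKI minus WT was 0.21 ± 0.16 and 0.44 ± 0.27 (SE), with adjusted p of 0.663 and 0.540 in limma over all probes.

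**Figure D3:**
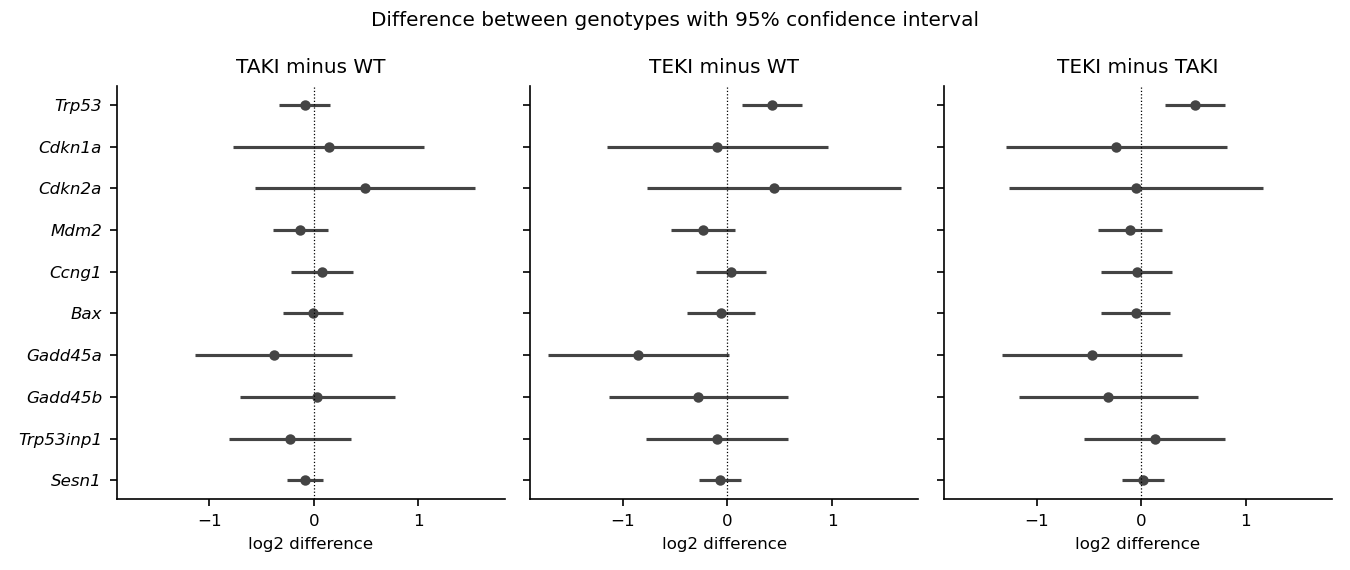
Difference between genotypes (horizontal axis, log2) for the tested probe of the 10 genes in the 3 comparisons, with bars for the 95% confidence interval from limma. The unadjusted interval leaves out 0 only for Trp53, in TEKI minus WT (0.14 to 0.71) and TEKI minus TAKI (0.23 to 0.80). Cdkn1a and Cdkn2a have wide intervals. Sesn1 has the narrowest, followed by Trp53, Mdm2, Bax and Ccng1.

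The wider pathway was read from 5 lists, of which 103 genes were tested. In TAKI minus WT, 1 of the 103 passed, a smaller share than the 2.82% of all genes, and 5 had an unadjusted p under 0.05, against 14.7%. The gene that passed, Ppp1r13l, encoding iASPP, an inhibitor of p53, fell. It read -0.27, -0.52, -0.35, -0.33 and 0.10 in WT, -1.08, -0.80, -1.02, -1.49 and -1.30 in TAKI, and -0.37, -0.25 and 0.29 in TEKI. Every TAKI liver lay below every other, and TAKI minus WT was -0.86 ± 0.17 (SE; adjusted p = 0.0183 in limma). It did not pass without TAKI replicate 5 (0.0601) or with the replicate number as a block (0.0674). The second Ppp1r13l probe gave -0.61 ± 0.17 (SE), with an adjusted p of 0.102 in limma over all probes. The 2 probes lay in rows 462 and 394 of the 532 rows of the array, and genes that fell in TAKI lay mostly there: the upper part, equal in rows to the lower, held 2.60% of the 192 genes called lower and 97.9% of the 383 called higher, against 50.4% of all genes. With the row and level trend removed, Ppp1r13l still passed in TAKI minus WT. The part of slide, and of position beyond that trend, was not tested.

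By list, in TAKI minus WT, 0 of 32 other p53 targets passed (median difference -0.09), 1 of 21 p53 regulators and partners (-0.06), 0 of 16 other CDK inhibitors and growth arrest genes (0.07), 0 of 12 other BCL2 family genes (0.00) and 0 of 22 proliferation genes (0.10), beside a median of 0.00 over all genes. The 2 genes of smallest p per list were, after Ppp1r13l, Pidd1 (-0.84, adjusted p = 0.0595), Tnfrsf10b (-0.79, 0.224), Kat5 (-0.30, 0.150), Rbl2 (0.28, 0.356), Cdkn2d (-0.22, 0.410), Bcl2 (-0.54, 0.368), Bmf (1.07, 0.511), Mcm5 (0.27, 0.625) and Tyms (-0.13, 0.633). Other probes of some of these genes differed. Another Tnfrsf10b probe, in row 184, gave 0.95 ± 0.28 (SE; adjusted p = 0.118 in limma over all probes), of the opposite sign. A further one, in row 155 and well above background on 3 arrays, gave -0.58. The other Pidd1 probes, in rows 201 and 110, gave -0.06 and -0.38. The tested probes of Pidd1 and Tnfrsf10b lay in rows 463 and 379, in the part of the array that held most genes called lower in TAKI. With the row and level trend removed, 2 of the 103 list genes passed, against 574 of all 20392. The part of position in these differences was not otherwise tested. One of the 3 Tyms probes, well above background on 12 arrays, gave 1.39 ± 0.43 (SE; adjusted p = 0.145 in limma over all probes), and the other Bmf probes gave -0.14 and 0.12.

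In TEKI minus WT none of the 103 genes passed in limma, against 0.0049% of all genes, and 2 had an unadjusted p under 0.05, a smaller share than the 11.6% of all genes. The medians were -0.07 for other p53 targets, 0.02 for regulators and partners, -0.03 for CDK inhibitors and growth arrest genes, -0.00 for BCL2 family genes and -0.03 for proliferation genes, beside 0.07 over all genes. The 2 of smallest p per list were Plk2 (-0.68, adjusted p = 0.392), Epha2 (-0.37, 0.454), Crebbp (-0.26, 0.430), Npm1 (-0.25, 0.439), Btg3 (-0.36, 0.720), Cdkn1b (-0.11, 0.768), Hrk (0.60, 0.650, well above background on 6 arrays), Bcl2 (0.32, 0.721), Rrm2 (-0.40, 0.631) and Pcna (-0.09, 0.723). The other Crebbp probes gave 0.60 and 0.68 and another Bcl2 probe -0.26, each of the opposite sign to the tested probe. So did the other Cdkn1b probe, on 10 spots, at 0.09. The other Npm1 probe gave -0.02. Plk2, a kinase induced by p53, read -0.47, -0.05 and -1.19 in TEKI and -0.36 to 0.45 in WT, with overlap.

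In TEKI minus TAKI 3 of the 103 genes passed, all higher in TEKI, which is near the 3.45% of all genes that passed, and 7 had an unadjusted p under 0.05, against 12.1%. Ppp1r13l differed by 1.03 ± 0.19 (SE; adjusted p = 0.0117 in limma) on the tested probe and by 1.13 ± 0.20 on the second. Pidd1, encoding a death-domain protein that activates caspase 2, read -0.68, -0.07, -0.69, -1.35 and -0.87 in TAKI and 0.51, 0.39 and 0.68 in TEKI, a difference of 1.26 ± 0.24 (SE; adjusted p = 0.0132 in limma). Its other 2 probes gave 0.13 ± 0.19 and 0.58 ± 0.27 (SE). Tnfrsf10b, a death receptor gene, differed by 1.41 ± 0.34 (SE; adjusted p = 0.0458 in limma), but another of its probes went the opposite way, by -1.09 ± 0.32 (SE). That call held in 7 of 27 other settings. The tested probes of Ppp1r13l, Pidd1 and Tnfrsf10b lay in rows 462, 463 and 379. With the row and level trend removed, 3 of the 103 list genes passed, against 691 of all 20392. The part of slide, and of position beyond that trend, was not tested. None of the 3 genes passed with median scaling (0.277, 0.0896 and 0.10), with only the 2 groups compared in the fit (0.0503, 0.0555 and 0.151) or without TEKI replicate 3 (0.0619, 0.0686 and 0.102).

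Some of the 10 genes varied together from liver to liver. After the genotype means were subtracted, Cdkn1a correlated with Bax at r = 0.85 (rho = 0.77) and with Trp53inp1 at r = 0.62 over the 13 livers. With the remaining members r was 0.22 to 0.38, and with the single-spot Trp53 probe it was -0.59 (-0.17 without WT replicate 5 and TEKI replicate 1). Each array is 1 mouse, and all points share the scaling of their array. These are descriptions of 9 pairs. Without WT replicate 5 and TEKI replicate 1, whose Cdkn1a levels lay farthest from the median, r was 0.66 with Bax and 0.48 with Trp53inp1, so part of those relations rests on these livers. It was then 0.61 with Ccng1 and 0.57 with Gadd45a, both higher than with all 13 livers (0.22 and 0.24). With Gadd45b r went from 0.31 to -0.29 and with Cdkn2a from 0.23 to -0.12, both changing sign. It was 0.43 with Sesn1 and 0.28 with Mdm2, near the values with all livers (0.38 and 0.24). Within genotype and slide, over the 11 arrays that share both with another, r was 0.70 with Bax and 0.46 with Trp53inp1.

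Beyond the members, the 5 genes most like Cdkn1a, by Pearson r over the 13 livers within genotype, were Sort1 (0.95), an unnamed transcript listed as ENSMUST00000056822 (0.93), Aen (0.93), Unc45a (0.93) and Colgalt1 (0.93). They were chosen as the highest of 20346 genes, of which the 99th percentile was 0.79. Aen encodes an apoptosis-enhancing nuclease and is itself a p53 target. It read 4.14, 4.17, 4.26, 4.36 and 3.77 in WT, 4.04, 4.14, 3.67, 4.09 and 4.13 in TAKI, and 3.67, 4.12 and 3.84 in TEKI. It was low where Cdkn1a was low, in WT replicate 5, TAKI replicate 3 and TEKI replicate 1, 1 liver of each genotype. Its r was 0.89 without WT replicate 5 and TEKI replicate 1 and 0.94 within genotype and slide. Sort1 encodes sortilin, a sorting receptor that acts in hepatic lipoprotein secretion. It read -0.71, -1.09, -0.74, -0.66 and -2.65 in WT, -1.52, -0.79, -2.01, -0.93 and -1.20 in TAKI, and -1.94, -0.72 and -1.36 in TEKI, with r = 0.82 without those 2 livers. Sort1 lies near the p53 target Psrc1 on chromosome 3 (108283974 to 108361519 and 108383804 to 108388231 in GRCm38.p6), and Psrc1 had r = 0.78.

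**Figure D4:**
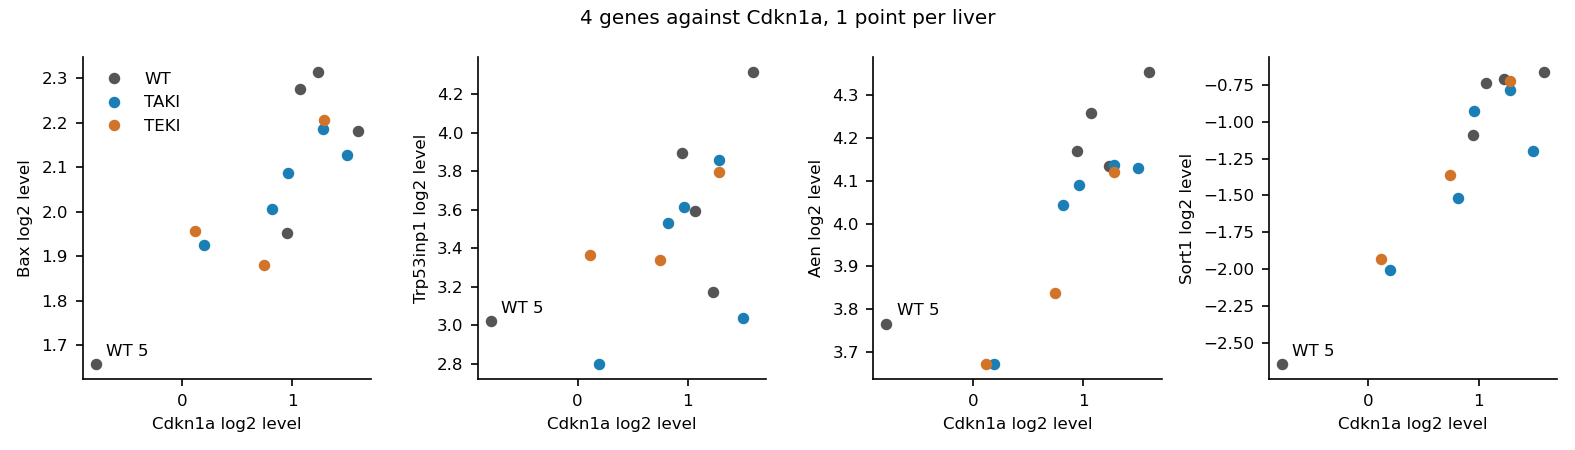
Level of Bax, Trp53inp1, Aen and Sort1 (vertical axes) against that of Cdkn1a (horizontal axes), all log2 and scaled by the array's 75th percentile, with 1 point per liver coloured by genotype. For Bax, Aen and Sort1, livers low in Cdkn1a tend to be low in the other gene (r of 0.85, 0.93 and 0.95 within genotype); WT replicate 5, marked, is lowest for Cdkn1a (-0.79), Bax (1.66) and Sort1 (-2.65).

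Among the 32 other p53 targets, 10 (31.2%) had r above 0.5 with Cdkn1a, against 10.2% of all genes, and the median r was 0.37 against -0.18. They included Zmat3 (0.79), Phlda3 (0.78), Psrc1 (0.78), Btg2 (0.78) and Gdf15 (0.64), which act in RNA stability, AKT inhibition, mitosis, growth arrest and stress signalling. Within genotype and slide r was 0.73 for Zmat3, 0.68 for Phlda3, 0.53 for Psrc1 and 0.56 for Btg2. Other lists also had more genes above 0.5 than the whole array: 37.5% of the CDK inhibitors and growth arrest genes, 41.7% of the BCL2 family genes and 27.3% of the proliferation genes, but 4.76% of the p53 regulators and partners. The median r of the proliferation genes was 0.37, as high as that of the other p53 targets, and it was 0.26 for the CDK inhibitors and growth arrest genes, 0.20 for the BCL2 family genes and -0.10 for the p53 regulators and partners. Scaling by the array median made the shares above 0.5 81.2% of the other p53 targets and 42.1% of all genes. Without WT replicate 5 they were 21.9% and 6.32%.

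**Figure D5:**
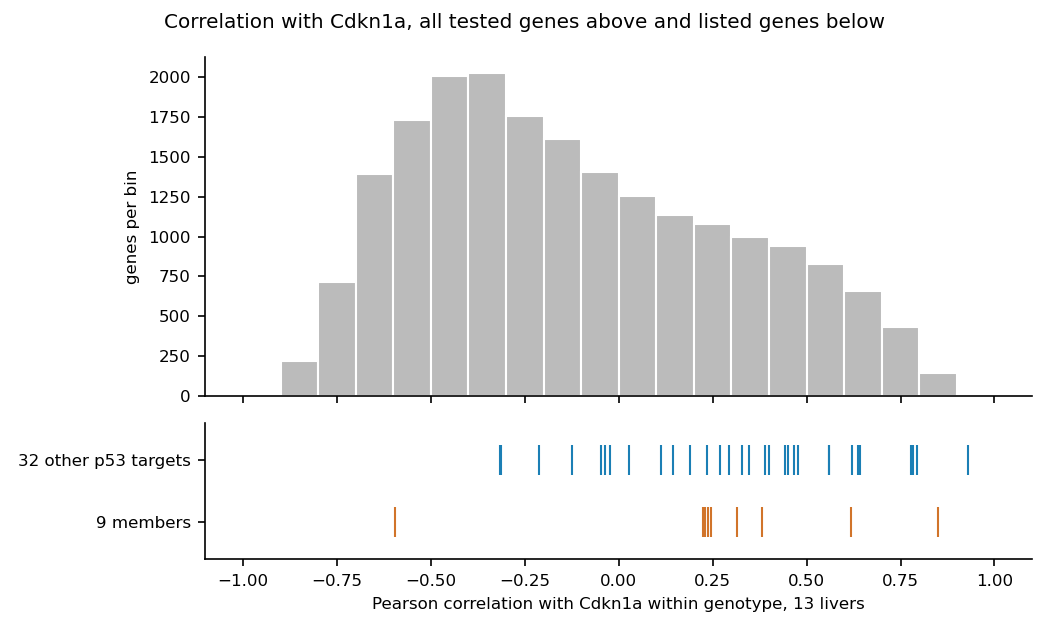
Pearson correlation with Cdkn1a within genotype over 13 livers: the bars count all tested genes in bins of 0.1, and the ticks below give each of the 32 other p53 targets and the 9 other members. The whole array centres below 0, with a median of -0.18, while the median of the other p53 targets is 0.37, as is that of the proliferation genes, which are not drawn apart.

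Some cell markers moved along with Cdkn1a and others against it. The summed level of the neutrophil markers, 4 of 5 tested, had r = 0.81 with Cdkn1a within genotype (rho = 0.81, and 0.74 without WT replicate 5 and TEKI replicate 1). It ran from 0.42 to 3.27 in WT, from 0.59 to 2.35 in TAKI and from 1.17 to 2.36 in TEKI, with WT replicate 5 lowest. Of these markers S100a9 (0.82) and S100a8 (0.80) followed Cdkn1a, while Mpo (-0.06) and Ngp (0.09) did not. Mpo was well above background on every array and Ngp on 2 of 5 WT, 2 of 5 TAKI and 1 of 3 TEKI arrays. The summed cholangiocyte markers had r = 0.63 (0.43 without those 2 livers) and the stellate cell markers 0.56 (0.36). For the joint list of macrophage and Kupffer cell markers r was 0.08 (-0.08). The lymphocyte markers had r = -0.52 (0.24), the endothelial markers -0.47 (0.01) and the hepatocyte markers -0.47 (-0.47). The part of cell composition in the spread of Cdkn1a was not tested.

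What these genes share in sequence was read from the 250 bases before each annotated start (RefSeq, GRCm38.p6), searched for the consensus decamer half-site of p53, a palindrome, so that 1 search covers both strands. Of the 10 genes 9 matched a promoter entry, Trp53inp1 being the other, and 7 of the 9 held at least 1 perfect half-site in a window, against 8.20% of 27025 genes (7.13% of 32851 windows). Most of the members were named for being p53 targets, so this is no independent property, and a match of letters is not a bound site. The windows of Cdkn1a (its upstream start) and Bax are printed because these genes moved together, with half-sites in capitals.
Cdkn1a, chr17:29090729-29090978, plus strand: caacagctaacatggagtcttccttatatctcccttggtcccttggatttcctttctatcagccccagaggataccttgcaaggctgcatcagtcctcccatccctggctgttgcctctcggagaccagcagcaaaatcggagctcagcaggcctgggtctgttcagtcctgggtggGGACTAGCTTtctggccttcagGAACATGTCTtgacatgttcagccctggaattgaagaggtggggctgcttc
Bax, chr7:45466899-45467148, minus strand: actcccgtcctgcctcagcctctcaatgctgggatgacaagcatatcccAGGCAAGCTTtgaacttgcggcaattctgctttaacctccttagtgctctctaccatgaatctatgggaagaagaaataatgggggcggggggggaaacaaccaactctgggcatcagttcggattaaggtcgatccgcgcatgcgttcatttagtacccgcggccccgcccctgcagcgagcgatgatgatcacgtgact
Counted from the start of transcription, the half-sites began at -73 and -51 from the upstream start of Cdkn1a and at -201 in Bax. The others began at -185 in Ccng1 (GGGCAAGCCT), -186 in Mdm2 (GAACTTGCCT), -40 in Gadd45a (GGGCTAGCCC), -75 in Trp53 (GGACTTGCCC) and -173 from the downstream start of Sesn1 (AAGCTTGTTT). The windows of Cdkn2a and Gadd45b, of the downstream start of Cdkn1a and of the upstream start of Sesn1 held no perfect match.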

How the data were processed

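Liver RNA (500 ng per mouse, labelled with Cy3) was hybridised to 1-colour arrays, and spots were read with Agilent Feature Extraction 9.5, per the file headers. The deposited intensity values were background-subtracted and detrended on each array by the authors' software and not scaled between arrays, per the file headers. A second deposited table repeated these intensity values (largest difference 0).

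Spots flagged as outliers were left out, log2 values were scaled by taking away the array's 75th percentile, and spots of 1 probe were averaged. Each gene was tested through its brightest probe, provided this was well above background on 3 or more arrays. Genotypes were compared with limma 3.58.1 in R 4.3.3, in 1 model over 13 arrays (10 residual degrees of freedom), adjusted by Benjamini-Hochberg over 20392 genes; the script was tested on simulated data. Python 3.11.15 and matplotlib 3.10.9 drew the figures. Probe names were updated through the RefSeq table of GRCm38.p6: 22951 probes by accession, 6659 by symbol and 3109 by synonym.

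Named genes were the 10 members with every probe, the 2 genes of smallest p per list in each comparison with WT, and the 5 genes most correlated with Cdkn1a. Pidd1, Tnfrsf10b and Ppp1r13l in TEKI minus TAKI, other correlated p53 targets and marker genes were named after their values were seen. The members and lists were chosen with earlier results of these data known. The correlations of deviations of same-numbered animals ran from -0.23 to 0.24 in TAKI and WT, from 0.08 to 0.11 in TEKI and WT and from 0.07 to 0.32 in TEKI and TAKI. In no comparison were all above 0.1, so replicate numbers were not used as pairs.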

Additional observations from a re-analysis of the deposited data

Results flagged for a closer look

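In groups of 5 livers, a liver was singled out where its gap to the nearest other took up over 0.71 of the range of the group, the 95% critical value of Dixon's test. This was run for the WT and TAKI groups of the member probes, the named genes of the lists and the genes most like Cdkn1a, and it singled out 13 of 82 (15.9%), where chance gives about 1 in 20. The genes share arrays, and the genes most like Cdkn1a were chosen for following it, so the 13 are not independent.

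In 10 of the 13 the liver was WT replicate 5, the only WT liver on slide 3. Among the members it was lowest for Cdkn1a (-0.79, others 0.95 to 1.59), for Gadd45b (-0.29, others 0.49 to 0.74) and for the 10-spot Trp53 probe (-1.63, others -1.49 to -1.44). Among the list genes it was lowest for Btg3 (-1.35, others -0.49 to -0.17) and Epha2 (1.6, others 2.05 to 2.17), and highest for Bmf (2.35, others -0.36 to 0.42) and Npm1 (5.21, others 4.84 to 4.93). Among the genes most like Cdkn1a it was lowest for Sort1 (-2.65, others -1.09 to -0.66), ENSMUST00000056822 (-1.74, others -0.75 to -0.36) and Unc45a (1.84, others 2.44 to 2.58). It held the lowest value of 4 of the 10 members, against 10% of all genes. Among these was Cdkn2a, whose probe was not well above background on that array.

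In TAKI, replicate 3 was lowest for Plk2 (-0.73, others -0.16 to -0.06) and Aen (3.67, others 4.04 to 4.14), and replicate 2 was lowest for Rbl2 (-0.84, others -0.27 to -0.15). The cause of these single readings was not tested.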

How the results depend on the processing

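No member passed in TAKI minus WT in any of 27 other settings or in TEKI minus WT in any of 29. In TEKI minus TAKI 1 member, Trp53, passed in 7 of 27. Quantile normalization, normexp, the intensity trend and array weights gave 1, against 1122, 4187, 663 and 675 of all genes. The alternative without WT replicate 5 and TEKI replicate 1, chosen after seeing the data, gave 1, against 1230 of all genes. Leaving out single livers gave 0 to 1, against 408 to 1099 of all genes. Members without overlap in TEKI minus WT numbered 0 with the row and level trend removed, against 951 of all 20392 genes. With single livers left out they numbered 1 to 3, against 799 to 3438 of all genes. In TEKI minus TAKI they numbered 0 with median scaling, against 1650 of all genes. With single livers left out they numbered 1 to 2 there, against 1678 to 3832. Genes of the lists passing in TAKI minus WT numbered 2 with median scaling, quantile normalization and the mean of the probes. The same number passed with the row and level trend removed and with the intensity trend. In these settings 521 to 999 of all genes passed. With normexp 3 list genes passed, against 651 of all genes, and with array weights 5, against 2193. Leaving out single livers gave 0 to 2, against 295 to 1312 of all genes. In TEKI minus TAKI list genes passing numbered 0 with median scaling (1023 of all genes) and with only the groups compared (507). They numbered 13 with normexp (4187 of all genes) and 0 to 3 with single livers left out (408 to 1099). With the replicate number as a block, members passing stayed at 0 in all comparisons. List genes passing were then 0, 0 and 1, against 343, 1 and 599 of all genes. The correlations of same-numbered livers ran from -0.23 to 0.32. All genes passing numbered 575 in TAKI minus WT (254 to 2193 over the settings), 1 in TEKI minus WT (0 to 93) and 704 in TEKI minus TAKI (296 to 4187). No difference of a member that passed changed its sign; among those that did not pass, 7, 8 and 6 of the 10 members changed sign in at least 1 setting. The cause of these changes was not tested. The 3 TEKI arrays, and Cdkn2a being near background, limit what could be seen.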
